A study of Homo sapiens with 18 samples.

Results

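Polycomb repressive complex 2 (PRC2) and the DNA methyltransferases were examined as 10 genes in RNA-Seq read counts from 2 human prostate cancer cell lines. The genes were taken by symbol, each from the 1 Ensembl gene that carries it, out of 60675 genes listed per library. All 10 passed the filter on low counts in every fit. LNCaP is an androgen-sensitive line from a lymph node metastasis, and C4-2 (LNCaP:C42 in the labels) is a castration-resistant subline of it. Each line gave 3 groups of 3 libraries, namely scrambled siRNA (siScr) with vehicle, siScr with the synthetic androgen R1881 (1 nM, 72 h), and R1881 at that dose and time in cells given siRNA to KDM1A together with siRNA to KDM7A (dual knockdown). The dual knockdown was therefore measured only with R1881 present, and no library had a single knockdown or a knockdown with vehicle. Each line is 1 culture line, so a difference between LNCaP and C4-2 is a difference between these cells. The 3 libraries titled C4-2 vehicle carry LNCaP in their cell line field, and they were grouped by title.

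PRC2 places methyl groups on lysine 27 of histone H3, a mark of silent genes. EZH2 or EZH1 is the catalytic subunit, EED and SUZ12 complete the core, and JARID2, MTF2 and PHF19 are accessory subunits that guide the complex to CpG-rich promoters. DNMT1 copies DNA methylation onto the new strand after replication, and DNMT3A and DNMT3B set methylation at new sites. In dividing cells EZH2 and DNMT1 are known to follow the cell cycle, EZH1 is the paralogue typical of resting cells, and high EZH2 is a known feature of advanced prostate cancer. In bulk RNA a gene expressed by fewer cells and a gene expressed less per cell cannot be told apart.

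Total counts ranged from 3182604 to 20154243 per library with a median of 18117641, and the shallowest library was C4-2 siScr vehicle replicate 3. KDM1A was at 108 ± 4.45 CPM (counts scaled to library size, SD, n = 3) in LNCaP siScr R1881 and at 51.6 ± 2.86 with dual knockdown, and in C4-2 at 142 ± 3.22 and 16.4 ± 3.03. KDM7A was at 59.8 ± 5.02 and 30.9 ± 2.94 in LNCaP and at 120.5 ± 10.0 and 21.2 ± 2.88 in C4-2. Both targets were thus reduced less in LNCaP, by log2FC of -1.05 and -0.93, than in C4-2, by -3.12 and -2.51, and both differences between the lines passed the interaction test (adjusted p = 2.4e-09 and 6.1e-07). R1881 raised KLK3, FKBP5 and TMPRSS2 in both lines, KLK3 from 345 ± 13.9 to 4537 ± 179.6 CPM in LNCaP and from 21.6 ± 2.88 to 397 ± 19.4 CPM in C4-2. Luminal markers were detected, with KRT8 between 235 and 1580 CPM and HOXB13 between 207 and 351 CPM, while 2 of 4 basal markers, 3 of 5 neuroendocrine markers and 6 of 8 stromal or immune markers averaged under 0.3 CPM. The collagen gene COL1A1, listed among the stromal markers, averaged 20.1 CPM (6.96 to 36.3 over the libraries), and its part in the results was not tested. Of 4443 genes that differed 2-fold between the lines with R1881, 3015 (67.9%) also did so in the same direction with vehicle, which is the comparison that uses the libraries with conflicting labels.

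In GRCh38, as the files give it, the genes lie as follows: EZH1 (ENSG00000108799) at chr17:42700275-42745049, minus strand, EZH2 (ENSG00000106462) at chr7:148807383-148884321, minus strand, EED (ENSG00000074266) at chr11:86244544-86278813, plus strand, SUZ12 (ENSG00000178691) at chr17:31937018-32001045, plus strand, JARID2 (ENSG00000008083) at chr6:15246296-15522040, plus strand, MTF2 (ENSG00000143033) at chr1:93079235-93139081, plus strand, PHF19 (ENSG00000119403) at chr9:120855652-120894896, minus strand, DNMT1 (ENSG00000130816) at chr19:10133345-10231286, minus strand, DNMT3A (ENSG00000119772) at chr2:25227855-25342590, minus strand, and DNMT3B (ENSG00000088305) at chr20:32762385-32809356, plus strand. The counts cover annotated exons, between 4522 bases (EZH2) and 12020 bases (DNMT3A) per gene. DNMT1 shares 69 exon bases with S1PR2 on the same strand, 0.7% of its exons.

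E2F factors are known to bind promoters of cell cycle genes at short GC-rich sites, so the promoter windows were searched for TTTCCCGC, TTTCGCGC, TTTGCCGC and TTTGGCGC, 4 forms of 1 site that share their outer letters, on both strands. The windows run from 250 bases before to 50 after a RefSeq start site (GRCh38.p14), and the most upstream window of each gene was used. All 10 genes had a window. A form of the site stood in 6 of the 10, in EZH1, EZH2, SUZ12, MTF2, PHF19 and DNMT1, and in 3.34% of 27305 promoters. Over all 18 windows listed for the 10 genes, the same 6 windows held it. The letters CCAAT, also searched on both strands, stood in the most upstream windows of EZH2, EED, SUZ12, JARID2, PHF19 and DNMT3B, 6 of the 10, and in 35.7% of all promoters. The GC content of the 10 windows lay between 52.3% and 79.7%, beside a median of 58.3% over all promoters, and its part in the count was not tested. The site with its flanks, cut at 30 bases after the start, is shown for those 6 genes because the count rests on these letters, with the site in capitals and each sequence on the strand of its gene.
EZH1: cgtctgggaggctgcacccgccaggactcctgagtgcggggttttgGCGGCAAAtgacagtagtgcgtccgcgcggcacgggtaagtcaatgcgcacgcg
EZH2: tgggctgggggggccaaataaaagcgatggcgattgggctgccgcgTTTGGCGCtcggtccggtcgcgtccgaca
SUZ12: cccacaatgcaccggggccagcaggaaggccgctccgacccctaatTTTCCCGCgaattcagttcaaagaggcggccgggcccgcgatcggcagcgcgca
MTF2: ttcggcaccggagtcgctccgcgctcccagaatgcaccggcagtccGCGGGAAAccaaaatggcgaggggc
PHF19: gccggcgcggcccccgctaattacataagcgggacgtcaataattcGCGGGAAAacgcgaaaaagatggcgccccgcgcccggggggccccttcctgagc
DNMT1: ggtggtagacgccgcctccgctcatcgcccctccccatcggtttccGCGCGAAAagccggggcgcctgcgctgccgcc
These stretches are chr17:42745102-42745201 (minus strand), chr7:148884262-148884336 (minus), chr17:31936772-31936871 (plus), chr1:93079242-93079312 (plus), chr9:120877287-120877386 (minus) and chr19:10194924-10195001 (minus). The Ensembl genes of DNMT1 and PHF19 used for counting extend upstream of these windows, as does that of DNMT3B, whose window is not shown. A match describes letters in a window and shows no binding.

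To set genes against each other, levels were divided by exon length and are CPM per kilobase. With vehicle in LNCaP SUZ12 was highest at 28.7 ± 2.13 (SD, n = 3), followed by DNMT1 at 16.7 ± 0.55 and EZH2 at 11.6 ± 0.70. MTF2 (6.69 ± 0.55), JARID2 (6.48 ± 0.03) and EZH1 (6.31 ± 0.16) overlapped their neighbours in that order, as did EED (3.91 ± 0.17), DNMT3A (3.82 ± 0.31) and DNMT3B (3.27 ± 0.26). PHF19 was lowest at 0.98 ± 0.14 and stood apart from every other gene. In C4-2 with vehicle SUZ12 (21.2 ± 1.30) and DNMT1 (20.8 ± 0.25) overlapped, EZH2 came next at 19.1 ± 0.54, and EZH1 had dropped to the 7th place at 4.03 ± 0.55, overlapping EED and DNMT3B. PHF19 stayed last with vehicle and with R1881 in both lines, and reached the range of DNMT3A and DNMT3B with dual knockdown in C4-2, at 2.47 ± 0.29.

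**Figure D1:**
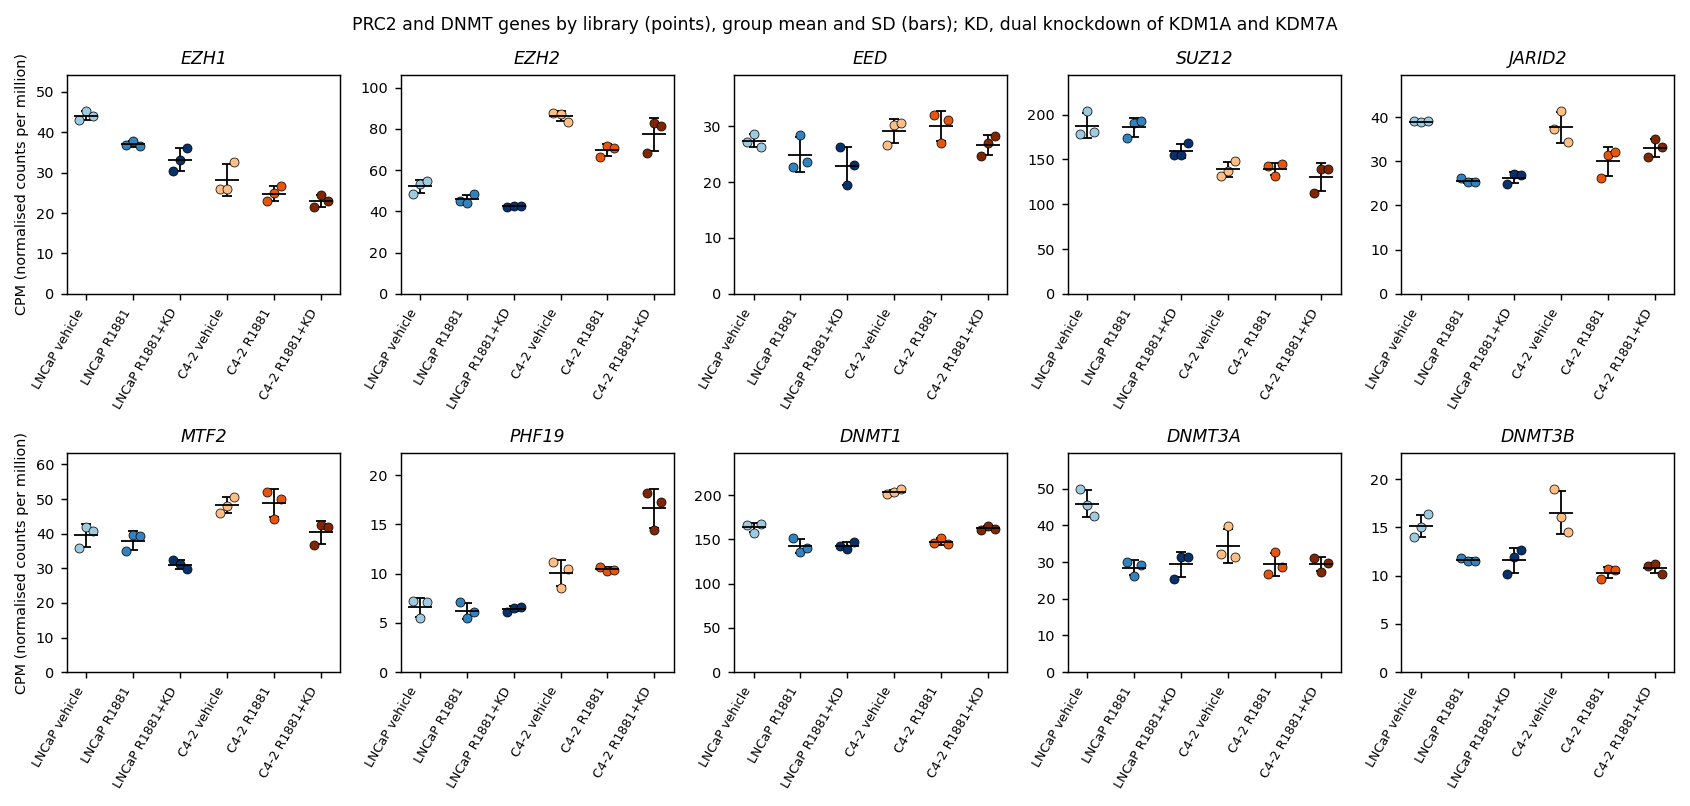
Normalised CPM (y axis, from 0) of each PRC2 and DNA methyltransferase gene in the 18 libraries, as points by group, with the group mean and SD as bars (n = 3). EZH2 stands higher and EZH1 lower in C4-2 than in LNCaP, DNMT1 is highest in the 3 C4-2 vehicle libraries (201.7 to 206.6 CPM), and PHF19 is highest with dual knockdown in C4-2 (14.4 to 18.1 CPM).

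The first comparison asks how the genes respond to androgen in siScr cells. With R1881, 6 of the 10 genes fell and none rose in LNCaP (adjusted p under 0.05), where 23.2% of all tested genes fell and 46.6% changed. In C4-2, 4 fell and none rose, where 15.7% of tested genes fell and 32.8% changed. The median log2FC of the 10 genes was -0.21 in LNCaP and -0.20 in C4-2, beside medians of -0.04 and -0.02 over all tested genes. The groups' libraries did not overlap for 6 of the 10 genes in LNCaP and 4 in C4-2, beside 53.0% and 46.9% of tested genes. None of the 10 passed a 2-fold limit as well, which 12.3% and 9.07% of tested genes did.

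Among the catalytic subunits, EZH2 was at 48.7, 53.3 and 54.8 CPM with vehicle and at 44.9, 44.1 and 48.4 CPM with R1881 in LNCaP, a log2FC of -0.21 ± 0.07 (SE, adjusted p = 0.021). In C4-2 it was at 87.8, 87.3 and 83.3 CPM with vehicle and at 66.4, 71.6 and 70.9 CPM with R1881, a log2FC of -0.31 ± 0.09 (adjusted p = 0.015). The R1881 libraries were the lower ones in both lines without overlap, though in LNCaP the groups were separated by less than 1 CPM. The LNCaP call was lost when siScr vehicle replicate 2 or 3 or siScr R1881 replicate 1 or 2 was left out (adjusted p up to 0.107), and the C4-2 call when siScr vehicle replicate 1 or siScr R1881 replicate 1 was left out (0.054 and 0.067). Without a filter on low counts the LNCaP call of EZH2 was also lost (adjusted p = 0.132). EZH1 was at 43.1, 45.2 and 44.0 CPM with vehicle in LNCaP and at 36.9, 37.9 and 36.5 CPM with R1881, a log2FC of -0.27 ± 0.07 (adjusted p = 0.0074). In C4-2 the EZH1 libraries overlapped, at 26.0, 26.0 and 32.6 CPM against 22.9, 24.8 and 26.7 CPM, and the log2FC of -0.16 did not pass (95% interval -0.41 to 0.09, adjusted p = 0.34).

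The core subunits EED and SUZ12 did not pass in either line. SUZ12 was at 187.9 ± 13.9 and 185.8 ± 10.3 CPM in LNCaP and at 139 ± 8.51 and 139.7 ± 6.62 CPM in C4-2, with 95% intervals of the log2FC of -0.17 to 0.10 and -0.20 to 0.22. For EED the intervals ran from -0.39 to 0.07 in LNCaP and from -0.18 to 0.28 in C4-2.

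Of the accessory subunits, JARID2 gave the clearest androgen response. It was at 39.0, 38.8 and 39.1 CPM with vehicle in LNCaP and at 26.2, 25.3 and 25.3 CPM with R1881, a log2FC of -0.62 ± 0.07 (adjusted p = 2.2e-06). In C4-2 it was at 37.3, 41.4 and 34.4 CPM and at 26.3, 31.4 and 32.2 CPM, a log2FC of -0.35 ± 0.11 (adjusted p = 0.025). The groups did not overlap in either line, but the C4-2 call was lost without siScr vehicle replicate 1 (adjusted p = 0.053) or 2 (0.127) or siScr R1881 replicate 1 (0.116). MTF2 and PHF19, which read H3K36 methylation through a Tudor domain, overlapped between vehicle and R1881 in both lines, with intervals of -0.25 to 0.09 and -0.41 to 0.26 in LNCaP and of -0.19 to 0.23 and -0.23 to 0.36 in C4-2.

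All 3 DNA methyltransferases fell in LNCaP, and 2 of them in C4-2. DNMT3A was at 49.8, 45.6 and 42.4 CPM with vehicle in LNCaP and at 30.1, 26.2 and 29.1 CPM with R1881, a log2FC of -0.70 ± 0.10 (adjusted p = 1.4e-05). In C4-2 it was at 32.1, 39.8 and 31.5 CPM and at 26.8, 32.8 and 28.6 CPM, a log2FC of -0.25 ± 0.12 that did not pass (95% interval -0.49 to 0.00, adjusted p = 0.12). All LNCaP vehicle libraries lay above all R1881 libraries, while the C4-2 groups overlapped. DNMT3B was at 14.0, 15.1 and 16.4 CPM and at 11.8, 11.6 and 11.6 CPM in LNCaP, a log2FC of -0.40 ± 0.11 (adjusted p = 0.0063). In C4-2 it was at 18.9, 16.1 and 14.6 CPM and at 9.62, 10.7 and 10.6 CPM, a log2FC of -0.71 ± 0.12 (adjusted p = 0.00045). Neither line had an R1881 library in the vehicle range of DNMT3B. DNMT1 was at 166.4, 157.4 and 167 CPM and at 151.7, 136.1 and 140.1 CPM in LNCaP, a log2FC of -0.21 ± 0.06 (adjusted p = 0.0095). In C4-2 it was at 201.7, 203.7 and 206.6 CPM and at 145.8, 152 and 145.3 CPM, a log2FC of -0.47 ± 0.07 (adjusted p = 1e-04). In C4-2 the DNMT1 groups were over 40 CPM apart. The LNCaP call of DNMT1 was lost without siScr R1881 replicate 2 (adjusted p = 0.066) or 3 (0.059).

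**Figure D2:**
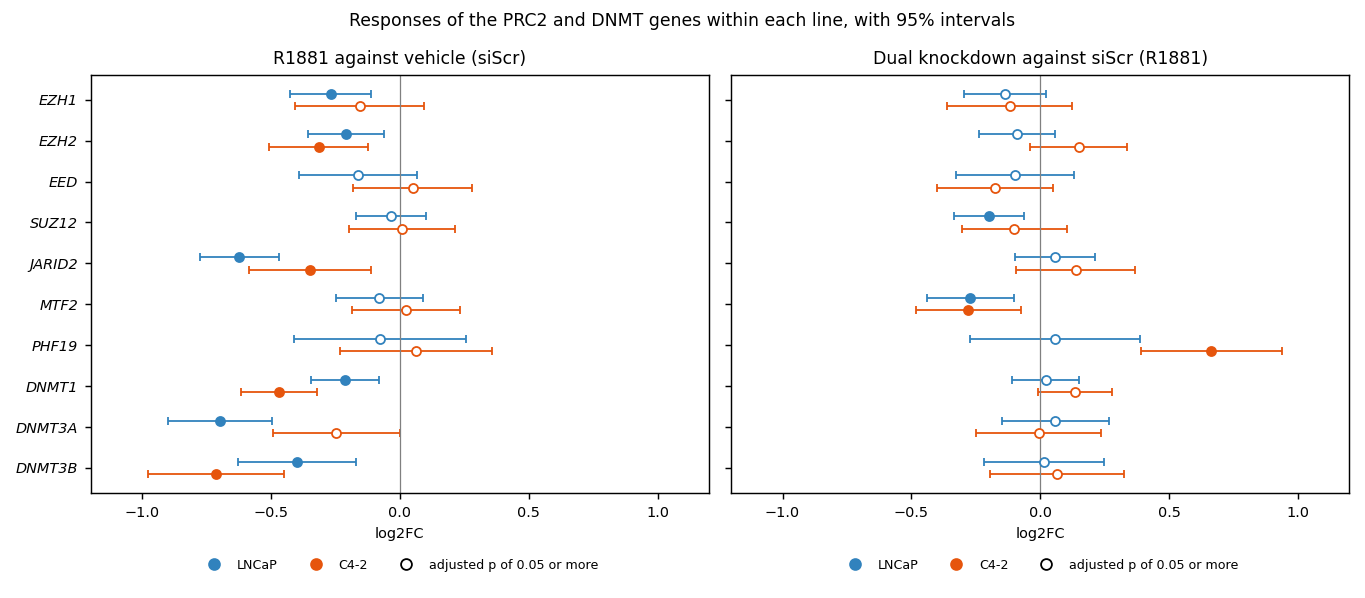
Log2FC (x axis) with 95% intervals for R1881 against vehicle (left) and for dual knockdown against siScr with R1881 (right), LNCaP in blue and C4-2 in orange, filled where the adjusted p was under 0.05. The filled points of the left panel all lie below 0, from -0.21 to -0.71, and on the right PHF19 in C4-2 is the filled point above 0, at 0.66.

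An interaction term over all 18 libraries tested whether LNCaP and C4-2 responded differently to androgen. Of the 10 genes only DNMT1 passed, falling further in C4-2 than in LNCaP by 0.27 ± 0.08 on the log2 scale (adjusted p = 0.028), beside 7.95% of tested genes with a lower, 6.05% with a higher and 14.0% with any different response, and 4.32% with one past 2-fold, which none of the 10 passed. Its call was lost in 6 of 18 fits with 1 library left out, those without LNCaP siScr vehicle replicate 1 (adjusted p = 0.054) or 2 (0.093), LNCaP siScr R1881 replicate 1 (0.092), C4-2 siScr vehicle replicate 3 (0.058) or C4-2 siScr R1881 replicate 1 (0.068) or 3 (0.076), and also without a filter on low counts (0.259). For DNMT3A the difference was 0.43 ± 0.15, which did not pass (95% interval 0.12 to 0.75, adjusted p = 0.063) and did without C4-2 siScr vehicle replicate 2 (0.021) or C4-2 siScr R1881 replicate 1 (0.048). For EZH2 the difference was -0.12 (95% interval -0.34 to 0.10) and for JARID2 it was 0.26 (0.00 to 0.51), neither past the threshold.

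The second comparison asks what the dual knockdown of the 2 demethylases does in R1881-treated cells, and it shares its siScr R1881 libraries with the first. In LNCaP 2 of the 10 genes fell and none rose, where 5.89% of tested genes fell, 8.27% rose and 14.2% changed, a share that was 4.70% without siScr R1881 replicate 2, 5.39% without siScr R1881 replicate 3, and 5.13% and 4.74% without dual knockdown replicate 1 and 2. In C4-2, 1 rose and 1 fell, where 12.7% of tested genes rose and 10.8% fell, 23.5% in all. Libraries did not overlap for 4 genes in LNCaP and 3 in C4-2, beside 34.5% and 40.5% of tested genes. None passed the 2-fold limit, which 0.286% and 3.94% of tested genes did. The 10 genes' median log2FC was -0.04 in LNCaP and 0.03 in C4-2, beside 0.00 and 0.01 over all tested genes.

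PHF19, the Polycomb-like accessory subunit with the lowest level, rose in C4-2. It was at 10.7, 10.3 and 10.3 CPM with siScr and at 18.1, 14.4 and 17.3 CPM with dual knockdown, a log2FC of 0.66 ± 0.13 (adjusted p = 0.0018). Every knockdown library lay above every siScr library, and the call held in all 9 fits with 1 library left out (adjusted p from 0.00085 to 0.014). In LNCaP it was at 7.11, 5.49 and 6.09 CPM and at 6.15, 6.52 and 6.61 CPM, a log2FC of 0.06 (95% interval -0.27 to 0.39, adjusted p = 0.86). The responses of the lines differed by 0.63 ± 0.20 (adjusted p = 0.043), the 1 call among the 10 genes in that test, beside 6.97% of tested genes with a higher, 3.88% with a lower and 10.9% with any different response, and 1.99% with one past 2-fold. That call held in 8 of 18 fits with 1 library left out and was lost without LNCaP siScr R1881 replicate 1 or 3, any LNCaP knockdown library, any C4-2 siScr R1881 library, or C4-2 knockdown replicate 1 or 3 (adjusted p up to 0.111). PHF19 had 311 counts over the 3 LNCaP siScr R1881 libraries and 546 over those of C4-2, and both siRNA targets fell further in C4-2.

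MTF2, a relative of PHF19, fell in both lines by similar sizes. In LNCaP it was at 35.0, 39.6 and 39.5 CPM with siScr and at 32.3, 31.2 and 29.8 CPM with dual knockdown, a log2FC of -0.27 ± 0.08 (adjusted p = 0.034). In C4-2 it was at 52.0, 44.3 and 50.1 CPM and at 36.7, 42.5 and 41.9 CPM, a log2FC of -0.28 ± 0.10 (adjusted p = 0.047). The knockdown libraries were lower without overlap in both lines, and the difference between the lines was 0.02 (95% interval -0.24 to 0.27). SUZ12 was at 174, 190.8 and 192.5 CPM and at 155.1, 155.5 and 168.3 CPM in LNCaP, a log2FC of -0.20 ± 0.06 (adjusted p = 0.048), and its log2FC of -0.10 in C4-2 did not pass (95% interval -0.30 to 0.10). Removing a trend with GC content ended both LNCaP calls (adjusted p = 0.20 for MTF2 and 0.62 for SUZ12). With 1 library left out the MTF2 call held in 4 of 9 fits in LNCaP and 2 of 9 in C4-2 (adjusted p up to 0.13 and 0.173), and the SUZ12 call in 3 of 9 (up to 0.184), the calls being lost without siScr R1881 replicate 2 or 3 or any knockdown library in LNCaP and, for SUZ12, also without siScr vehicle replicate 3. In C4-2 the MTF2 call was lost without siScr vehicle replicate 1 or 2, siScr R1881 replicate 1 or 3 or any knockdown library.

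The other genes did not pass with dual knockdown. EZH2 was at 45.8 ± 2.29 and 42.5 ± 0.42 CPM in LNCaP and at 69.6 ± 2.84 and 77.4 ± 8.02 CPM in C4-2, with 95% intervals of the log2FC of -0.24 to 0.06 and -0.04 to 0.34. Without C4-2 dual knockdown replicate 1, the lowest of its 3 at 68.2 CPM, EZH2 passed as higher in C4-2 (adjusted p = 0.016), as did the difference between the lines (0.0094). DNMT1 was at 145.8, 152 and 145.3 CPM with siScr and at 161, 165.5 and 162.2 CPM with dual knockdown in C4-2, groups that did not overlap, and its log2FC of 0.14 did not pass (95% interval -0.01 to 0.28, adjusted p = 0.17). For DNMT3A the intervals were -0.15 to 0.27 in LNCaP and -0.25 to 0.24 in C4-2, and for DNMT3B they were -0.22 to 0.25 and -0.20 to 0.32.

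The third comparison sets C4-2 against LNCaP. With vehicle 4 of the 10 genes were higher and 3 lower in C4-2, where 29.4% of tested genes were higher and 29.5% lower, 58.9% in all. With R1881, 5 were higher and 2 lower, where 28.6% were higher and 29.7% lower, 58.3% in all. The share of the 10 genes called was therefore near that of all genes. Libraries did not overlap for 7 genes with vehicle and 7 with R1881, beside 61.9% and 64.8% of tested genes. None was 2-fold apart, as 24.2% and 23.8% of tested genes were.

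The catalytic subunits differed in opposite directions. EZH2 was at 48.7 to 54.8 CPM in LNCaP and at 83.3 to 87.8 CPM in C4-2 with vehicle, a log2FC of 0.72 ± 0.08 (adjusted p = 4.2e-08), and its log2FC was 0.60 ± 0.07 with R1881 (adjusted p = 4.8e-07). EZH1 was at 43.1 to 45.2 CPM in LNCaP and at 26.0 to 32.6 CPM in C4-2 with vehicle, a log2FC of -0.69 ± 0.09 (adjusted p = 1.5e-06), and its log2FC was -0.58 ± 0.09 with R1881 (adjusted p = 8.9e-06). For both genes each library of one line lay outside the range of the other line. Per kilobase EZH2 exceeded EZH1 by 1.83 ± 0.09 times in LNCaP and by 4.79 ± 0.73 times in C4-2 with vehicle (SD, n = 3). The ratios were 1.75, 1.82 and 1.92 in LNCaP and 5.22, 5.20 and 3.95 in C4-2. With R1881 the ratios were 1.88, 1.80 and 2.05 in LNCaP and 4.48, 4.45 and 4.11 in C4-2. With dual knockdown they were 2.13, 1.99 and 1.83 in LNCaP and 4.93, 5.25 and 5.48 in C4-2. Every C4-2 library had a higher ratio than every LNCaP library, by 2.60-fold with vehicle and 2.28-fold with R1881, and each 2-sided exact permutation test gave p = 0.1, the smallest that 3 libraries against 3 allow (0.2 after adjustment over 6 comparisons). R1881 left the ratio overlapping in both lines (exact permutation p = 0.5 in LNCaP and 0.4 in C4-2), and with dual knockdown it was 1.2-fold higher in C4-2 without overlap (exact permutation p = 0.1, adjusted 0.2) and overlapped in LNCaP (exact permutation p = 0.6).

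**Figure D3:**
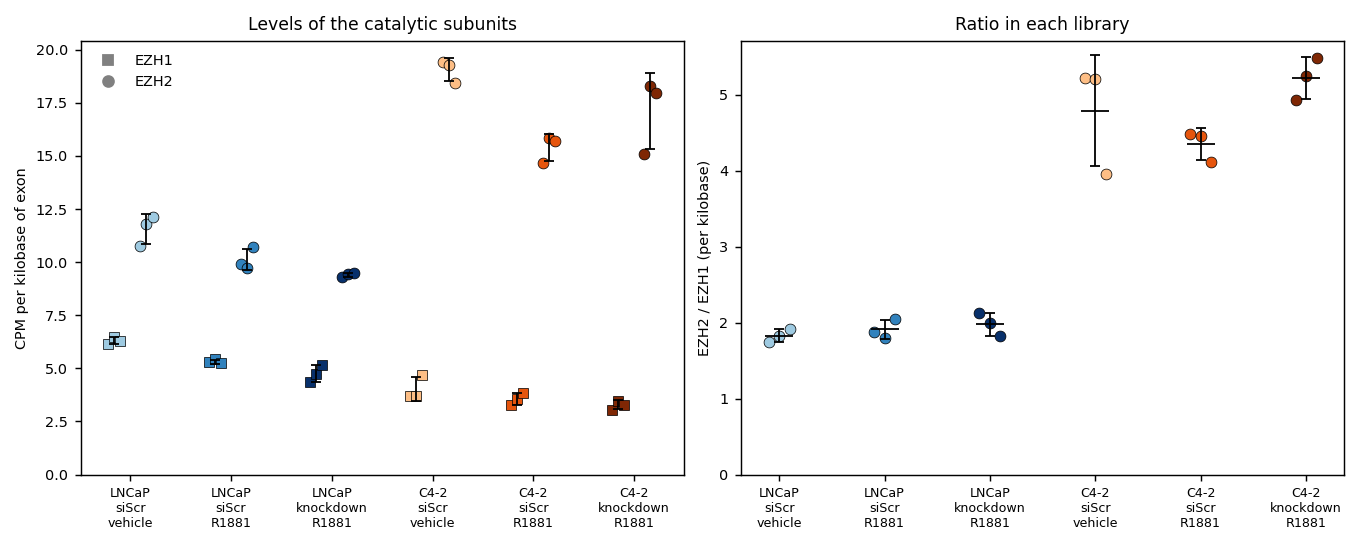
Left, CPM per kilobase of exon (y axis) of EZH1 (squares) and EZH2 (circles) in each library of the 6 groups, and right, the ratio of EZH2 to EZH1 per library, with means and SD as bars (n = 3). The 9 LNCaP libraries have ratios from 1.75 to 2.13 and the 9 C4-2 libraries from 3.95 to 5.48.

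SUZ12 was lower in C4-2, at 131.6 to 148.3 CPM against 178.6 to 204 CPM with vehicle, a log2FC of -0.44 ± 0.08 (adjusted p = 8.6e-05), and at -0.41 ± 0.08 with R1881 (adjusted p = 0.00016). EED passed only with R1881, at 0.28 ± 0.11 (adjusted p = 0.034), with overlapping libraries and a call that was lost without LNCaP or C4-2 siScr R1881 replicate 1 or 3 (adjusted p up to 0.166). With vehicle its 95% interval was -0.16 to 0.31, and it passed there with the GC trend removed (adjusted p = 0.0056).

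Among accessory subunits PHF19 was at 5.47 to 7.18 CPM in LNCaP and at 8.53 to 11.1 CPM in C4-2 with vehicle, a log2FC of 0.61 ± 0.15 (adjusted p = 0.0012), and at 0.74 ± 0.14 with R1881 (adjusted p = 0.00012). MTF2 was higher in C4-2 by 0.27 ± 0.09 with vehicle (adjusted p = 0.011), lost without LNCaP siScr vehicle replicate 1 (0.082), and by 0.36 ± 0.08 with R1881 (adjusted p = 0.00098). JARID2 did not pass with vehicle (95% interval -0.21 to 0.15) and was higher in C4-2 with R1881 by 0.23 ± 0.09 (adjusted p = 0.030), a call lost without any LNCaP siScr R1881 library or without C4-2 siScr R1881 replicate 2 or 3 (adjusted p up to 0.159). That JARID2 call was also lost without a filter on low counts (adjusted p = 0.079).

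DNMT1 and DNMT3A differed between the lines with vehicle, and no DNA methyltransferase passed with R1881. DNMT1 was at 157.4 to 167 CPM in LNCaP and at 201.7 to 206.6 CPM in C4-2 with vehicle, a log2FC of 0.32 ± 0.06 (adjusted p = 6e-05), and its log2FC with R1881 was 0.05 (95% interval -0.07 to 0.17). DNMT3A was lower in C4-2 with vehicle, at 31.5 to 39.8 CPM against 42.4 to 49.8 CPM, a log2FC of -0.39 ± 0.11 (adjusted p = 0.0039), and its log2FC with R1881 was 0.04 (-0.18 to 0.27). The vehicle libraries did not overlap for either gene. DNMT3B did not pass with vehicle (95% interval -0.08 to 0.39) or R1881 (-0.42 to 0.06). Without C4-2 siScr vehicle replicate 3, the shallowest library, the counts of genes called stayed at 7 in both comparisons of the lines, at 4 for R1881 and at 2 for dual knockdown in C4-2, and fell from 1 to 0 for the difference in androgen response.

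**Figure D4:**
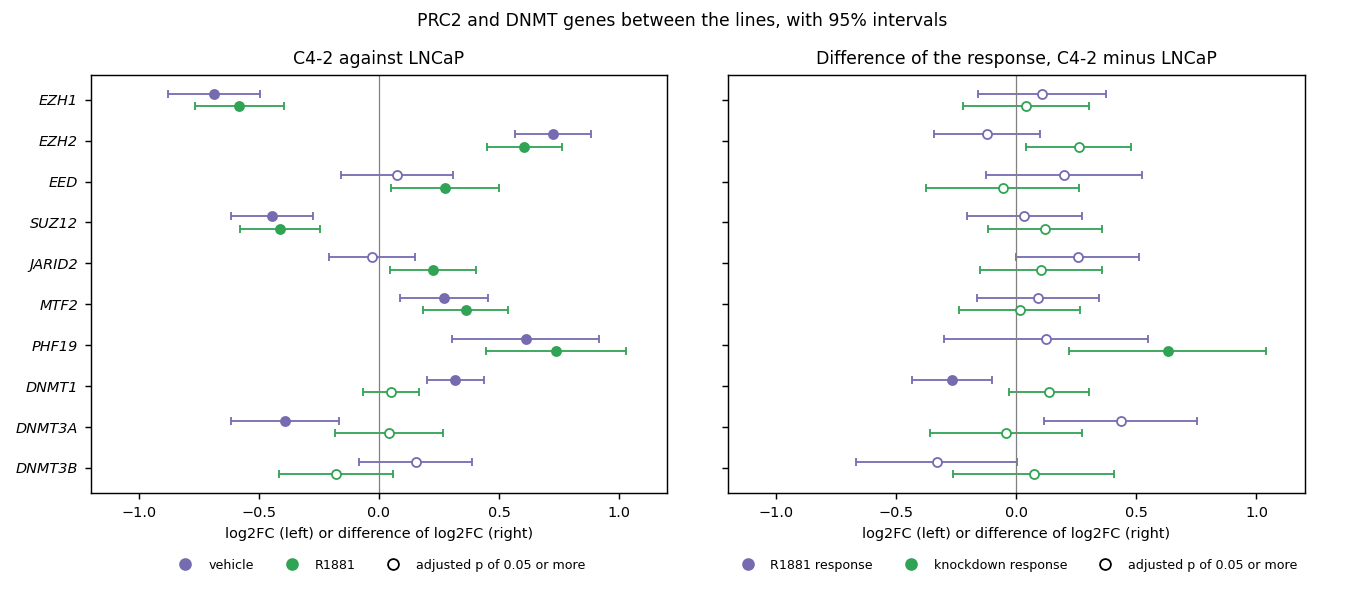
Left, log2FC (x axis) of C4-2 against LNCaP with 95% intervals, with vehicle in purple and R1881 in green, and right, the difference between the lines in the R1881 response (purple) and in the knockdown response (green), filled where the adjusted p was under 0.05. EZH1 and SUZ12 lie left of 0 and EZH2, MTF2 and PHF19 right of 0 with both treatments, and on the right DNMT1 (-0.27) and PHF19 (0.63) are filled.

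Counts in this and the following lists stand beside these shares of all tested genes. With R1881 23.5% rose and 23.2% fell in LNCaP, and 17.1% rose and 15.7% fell in C4-2. With dual knockdown 8.27% rose and 5.89% fell in LNCaP, and 12.7% rose and 10.8% fell in C4-2. Between the lines 29.4% were higher and 29.5% lower in C4-2 with vehicle, and 28.6% and 29.7% with R1881. Genes of the cell cycle moved beside these results. Of 20 proliferation genes, 17 fell and none rose with R1881 in C4-2 (median log2FC -0.42), whereas in LNCaP 4 rose and 6 fell (median -0.09). EZH2, DNMT1 and DNMT3B fell with R1881 in both lines, and PHF19 passed in neither. FOXM1, which drives mitotic genes, fell by 0.77 ± 0.09, the replication helicase subunit MCM2 by 0.69 ± 0.07 and the mitotic kinase PLK1 by 0.66 ± 0.09 in C4-2. The summed level of the 20 genes was 2470 to 2880 CPM in C4-2 vehicle libraries, 1990 to 2110 with R1881 and 2390 to 2630 with dual knockdown, and it stayed between 1840 and 1980 CPM in all LNCaP libraries. With dual knockdown 11 of the 20 rose and none fell in C4-2, while 5 rose and 1 fell in LNCaP. With vehicle 14 were higher and none lower in C4-2 than in LNCaP, led by the mitotic kinase AURKA (1.45 ± 0.08), and with R1881 10 were higher and 8 lower. The part of this in the levels of EZH2, DNMT1 and PHF19 was not tested.

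Of 12 E2F and RB genes, 2 rose and 3 fell with R1881 in LNCaP, beside 23.5% and 23.2% of tested genes. In C4-2 2 rose and 4 fell, beside 17.1% and 15.7% of tested genes. E2F7 (-0.74 ± 0.13), E2F2 (-0.71 ± 0.15) and E2F1 (-0.68 ± 0.14) had the largest log2FC in C4-2. With dual knockdown 1 rose and 3 fell in LNCaP, and 3 rose and 2 fell in C4-2. Between the lines with vehicle 8 were higher and 2 lower in C4-2, among them the pocket protein RBL2, at 184 CPM in LNCaP and 69.6 CPM in C4-2 (-1.41 ± 0.07). With R1881 5 were higher and 2 lower.

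Of the 8 other PRC2 subunits listed, 7 were tested. With R1881 3 rose and 2 fell in LNCaP, AEBP2, a subunit of the JARID2-containing complex, falling by 0.46 ± 0.07 and the Elongin-binding subunit EPOP by 0.43 ± 0.11, while PHF1, the third Polycomb-like protein, rose by 0.33 ± 0.10. In C4-2 the histone chaperone RBBP7 rose by 0.30 ± 0.09 and none fell. With dual knockdown the chaperone RBBP4 fell in both lines, by 0.19 ± 0.06 in LNCaP and 0.41 ± 0.09 in C4-2, and AEBP2 (0.33 ± 0.09) and RBBP7 (0.25 ± 0.09) rose in C4-2. EPOP was higher in C4-2 with vehicle (0.73 ± 0.13) and R1881 (1.04 ± 0.13), while LCORL (-0.58 ± 0.12 and -0.85 ± 0.11) and LCOR (-0.56 ± 0.09 and -0.63 ± 0.08) were lower, of 1 higher and 5 lower with vehicle and 1 higher and 3 lower with R1881.

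The genes listed as PRC2 opponents and tested were KDM6A, KDM6B, BAP1, ASXL1, ASXL2, ARID1A, SMARCA4 and SMARCB1. Whether each acts against PRC2 in these cells was not tested. Of these 8, 7 fell and none rose with R1881 in LNCaP and 4 fell and none rose in C4-2. Beside them 23.2% and 15.7% of tested genes fell. The median log2FC of the 8 was -0.28 in LNCaP and -0.24 in C4-2. KDM6B and KDM6A, the demethylases of H3K27, fell by 0.93 ± 0.09 and 0.80 ± 0.06 in LNCaP, from 131 to 69.1 CPM and from 515 to 300 CPM, and KDM6B fell by 0.46 ± 0.10 in C4-2. With dual knockdown ASXL2, a partner of the H2A deubiquitinase BAP1, fell by 0.27 ± 0.06 in LNCaP, the 1 call there, and in C4-2 KDM6A rose by 0.40 ± 0.08 while the chromatin remodelling subunits ARID1A and SMARCA4 fell by 0.29 ± 0.08 and 0.29 ± 0.09. Between the lines 2 were higher and 2 lower with vehicle and 3 higher and none lower with R1881.

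Of 19 PRC1 genes, whose complex ubiquitinates histone H2A, 4 rose and 8 fell with R1881 in LNCaP, beside 23.5% and 23.2% of tested genes. In C4-2 4 rose and 5 fell, beside 17.1% and 15.7% of tested genes. PHC1 fell from 23.4 to 10.4 CPM in LNCaP (-1.19 ± 0.13) and from 8.39 to 5.70 CPM in C4-2 (-0.69 ± 0.24). The C4-2 groups overlapped, at 10.2, 11.2 and 3.79 CPM with vehicle and at 6.43, 5.45 and 5.20 CPM with R1881. The vehicle value of 3.79 CPM came from replicate 3, the shallowest library. BMI1 rose in C4-2 from 39.5 to 66.7 CPM (0.77 ± 0.09). With dual knockdown 2 rose and 2 fell in LNCaP and 3 rose in C4-2, and the chromobox gene CBX6 rose in both (0.35 ± 0.08 and 0.52 ± 0.07). Between the lines 5 were higher and 4 lower with vehicle and 7 higher and 3 lower with R1881, with PCGF3 lower in C4-2 at both (-0.91 ± 0.07 and -0.85 ± 0.06).

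UHRF1, which brings DNMT1 to hemimethylated DNA, fell with R1881 by 0.36 ± 0.12 in LNCaP, from 22.6 to 17.6 CPM, and by 0.88 ± 0.10 in C4-2, from 26.5 to 14.5 CPM. It rose with dual knockdown by 0.43 ± 0.12 in LNCaP and 0.37 ± 0.10 in C4-2. HELLS, a remodeller needed for methylation of repeats, fell with R1881 in C4-2 by 0.74 ± 0.14. Of the 6 partners tested, 3 rose and 2 fell with R1881 in LNCaP, beside 23.5% and 23.2% of tested genes. In C4-2 1 rose and 2 fell, beside 17.1% and 15.7% of tested genes. With dual knockdown 1 rose and 1 fell in LNCaP and 2 rose and none fell in C4-2. With vehicle none was higher and 3 were lower in C4-2 than in LNCaP, and with R1881 none was higher and 5 were lower, with UHRF2 at -0.74 ± 0.07.

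Of 7 genes listed for DNA demethylation, 3 fell and 1 rose with R1881 in LNCaP, and 4 fell and 1 rose in C4-2. Their median log2FC was -0.05 in LNCaP and -0.49 in C4-2, beside -0.04 and -0.02 over all tested genes. Whether each gene removes DNA methylation in these cells was not tested. TET2, TET1 and TET3 oxidise methylcytosine and fell in LNCaP by 0.96 ± 0.08, 0.52 ± 0.13 and 0.49 ± 0.07. In C4-2 TET2 fell by 0.50 ± 0.11 and the stress gene GADD45A by 0.99 ± 0.10, and not all 4 that fell are named. TET3 was lower there too, at 77.4, 83.8 and 82.8 CPM with vehicle and at 53.9, 63.0 and 56.7 CPM with R1881. TET2 fell again with dual knockdown, by 0.34 ± 0.08 in LNCaP, the 1 call there, and by 0.33 ± 0.11 in C4-2, where 1 gene rose and 2 fell. TET1 was at 13.7 CPM in LNCaP and at 3.96 CPM in C4-2 with vehicle (-1.78 ± 0.21), of 2 higher and 3 lower, and 1 was higher and 3 lower with R1881. Of the methyl-CpG readers, MBD3 rose with dual knockdown by 0.54 ± 0.09 in LNCaP and by 0.38 ± 0.13 in C4-2.

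S-adenosylmethionine gives the methyl group to both enzyme families. Of 8 genes listed for its supply and use 6 rose and 1 fell with R1881 in LNCaP, beside 23.5% and 23.2% of tested genes. In C4-2 2 rose and 1 fell, beside 17.1% and 15.7% of tested genes. GNMT, which consumes it, rose from 3.97 to 101 CPM in LNCaP (4.65 ± 0.12) and from 3.29 to 18.1 CPM in C4-2 (2.27 ± 0.19). With dual knockdown 1 rose and 1 fell in LNCaP and 4 rose in C4-2, among them the synthetase genes MAT1A (1.13 ± 0.15) and MAT2A (0.38 ± 0.07). With vehicle 4 were higher and 2 lower in C4-2 than in LNCaP and with R1881 3 were higher and 4 lower, MAT2A being lower at both (-0.78 ± 0.05 and -0.74 ± 0.05).

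Of 8 genes known as EZH2 targets in prostate cancer, 7 were tested between the lines, and 2 were higher and 5 lower in C4-2 with vehicle and 1 higher and 5 lower with R1881, where 29.5% and 29.7% of tested genes were lower. SLIT2 and TIMP3 passed the filter on low counts through the LNCaP libraries and were not tested within C4-2, so their direction was fixed by the filter and these counts are a description. CDKN2A was at 14.4 CPM in LNCaP and at 1.10 CPM in C4-2 with vehicle (-3.73 ± 0.24). SLIT2 had 236 counts in LNCaP and 3 in C4-2 with vehicle, 61.8-fold fewer per library total (exact 95% interval 20.9 to 302, counting error only). TIMP3 had 44 counts in LNCaP and 0 in C4-2 with R1881, at least 15.6-fold lower in C4-2 against a floor of 3 counts over the group. MSMB was higher in C4-2, at 0.19 CPM in LNCaP and 1.34 CPM in C4-2 with vehicle (2.79 ± 0.37). At 0.19 CPM it was near the floor in LNCaP, so its direction may have been fixed by the filter and is a description. With R1881 2 rose and 2 fell in LNCaP, and of 5 tested in C4-2 2 rose and 1 fell. With dual knockdown CDKN2A rose by 0.39 ± 0.12 and CDH1 fell by 0.22 ± 0.05 in LNCaP, and CDH1 fell by 0.25 ± 0.07 in C4-2. Histone marks were not measured in these libraries.

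Of 10 genes known for promoter methylation in prostate cancer, 8 were tested between the lines, and 2 were higher and 3 lower in C4-2 with vehicle and 3 higher and 4 lower with R1881. GSTP1 and CCND2 likewise passed the filter through the LNCaP libraries and were not tested within C4-2. GSTP1 had 81 counts in LNCaP and 0 in C4-2 with vehicle, at least 21.2-fold lower, and 74 and 0 with R1881, at least 26.2-fold lower. CCND2 had 60 and 3 counts with vehicle, 15.7-fold fewer per library total in C4-2 (exact 95% interval 5.12 to 78.3). AOX1 was higher in C4-2 with vehicle, at 2.59 CPM against 0.21 CPM (3.60 ± 0.44). Of the 10 genes, 7 were tested within LNCaP. At 0.21 CPM AOX1 was near the floor there, so its direction may have been fixed by the filter and is a description. With R1881 3 rose and 1 fell in LNCaP, and RARB rose in both lines (0.93 ± 0.23 and 2.12 ± 0.23), the 1 call of 5 tested in C4-2. With dual knockdown RASSF1 rose in both lines (0.41 ± 0.09 and 0.57 ± 0.13), of 1 rising and 1 falling in LNCaP and 1 rising and 2 falling in C4-2. DNA methylation was not measured in these libraries.

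The genes whose levels over the 18 libraries ran closest to single genes of the 10 were sought among 11341 genes with a mean of at least 5 CPM, by Pearson's r of log2 CPM, as a description over points that share lines and treatments. For EZH2 they were OSBPL3 (0.98), LNX2 (0.98) and CPLANE1 (0.98), and for EZH1 they were ZNF623 (0.98), ZFP14 (0.98) and ZNF333 (0.97). For DNMT1 they were LMO4 (0.98), PAG1 (0.97) and TCHP (0.94). For DNMT3A they were ACIN1, USP36 and TRIM45 (each 0.91), and for DNMT3B they were SYTL2 (0.92), C1orf115 (0.92) and PITX1-AS1 (0.91). Among the 10 genes themselves the closest pairs were EZH1 with SUZ12 (0.92) and EED with MTF2 (0.83), and the most opposed were SUZ12 with PHF19 (-0.85) and EZH1 with PHF19 (-0.83).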

How the data were processed

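RNA-Seq read pairs were counted per gene in 18 libraries. Per the methods and file headers, the authors trimmed poly(A) reads (TrimGalore), aligned them to GRCh38 (STAR) and made the deposited counts with featureCounts 1.5.0-p1 on Ensembl 83, with no strand or multi-mapping option, so paralogue and antisense reads may be miscounted. The vehicle was DMSO in the methods for these libraries. Counts were analysed with edgeR 4.0.16 (R 4.3.3, limma 3.58.1) using TMM, filterByExpr (minimum count 10) and the 2-sided quasi-likelihood F-test, with p-values adjusted by Benjamini-Hochberg over all tested genes (17162 in LNCaP, 16965 in C4-2, 18684 in both). Responses were fitted within each line (9 libraries), and differences between lines and interactions over 18. Changed means an adjusted p under 0.05. CPM used TMM factors of all 18 libraries. DESeq2 1.42.0 and other settings were alternatives. Replicate libraries differed by 2.56 to 18.6 times counting noise (chi-square per degree of freedom), so none was a duplicate. The labels name no separate cultures, so p-values measure the spread between these libraries. On simulated R1881 data in C4-2, 25 of 100 genes changed by a log2FC of 0.5 and 93 of 100 changed by 1.5 were recovered. For R1881 in LNCaP 59 of 100 were recovered at 0.5. For the difference in R1881 response 2 of 100 were recovered at 0.5 and 64 of 100 at 1.5, so small changes can be missed. Each simulation changed only 200 genes and gave every gene the same spread. In the data 5571 genes were called for R1881 in C4-2. These rates are therefore not the detection rates of the real fits. The 10 genes and all lists were chosen with earlier results of these data known. From each list up to 3 genes per comparison with the largest change past the threshold could be named. Symbols came from a gene name reference, with GENCODE 29 names where it had none, and promoter sequences from RefSeq. Some genes of the lists are not reported here.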

Additional observations from a re-analysis of the deposited data

Results flagged for a closer look

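Each result here is a response that differed between LNCaP and C4-2 in an interaction test over all 18 libraries (edgeR quasi-likelihood, adjusted p under 0.05), given as the C4-2 response minus the LNCaP response on the log2 scale. Among the 10 PRC2 and DNA methyltransferase genes these were DNMT1 with R1881 (-0.27) and PHF19 with dual knockdown (0.63). Genes were also named from the lists of PRC1, PRC2 opponents, DNA methylation partners and E2F and RB genes, chosen with earlier results known. Not every gene that differed is named. The R1881 response differed for the PRC1 genes BMI1 (1.12) and YAF2 (0.58), and for the H3K27 demethylases KDM6A (0.50) and KDM6B (0.46). It also differed for HELLS (-0.70), UHRF1 (-0.53), PCNA (-0.44), E2F7 (-1.16), E2F1 (-0.85) and E2F2 (-0.84). Genes of other lists differed too. Of 20 proliferation genes 11 had a lower R1881 response in C4-2 and none a higher one. Of 7 DNA demethylation genes 2 were lower and 1 higher. Of 8 S-adenosylmethionine genes 2 were lower and none higher. Of 7 EZH2 target genes tested 2 were lower and 1 higher, and of 8 promoter-methylated genes tested 1 was lower and 1 higher. Over all tested genes 14.0% had a different R1881 response. The response to dual knockdown differed for PCGF5 (0.56), KDM6A (0.51), HELLS (0.60), UHRF2 (0.39), E2F7 (0.57), RB1 (0.47) and RBL2 (0.37). In the other lists it was higher in C4-2 for 3 of 20 proliferation genes and lower for none. It was higher for 1 of 7 other PRC2 subunits tested and lower for none, and lower for 1 of 7 DNA demethylation genes. For S-adenosylmethionine genes it was higher in 3 of 8 and lower in none, beside 6.97% of tested genes with a higher response. It was lower for 1 of 7 methyl-CpG readers, 1 of 7 EZH2 targets and 1 of 8 promoter-methylated genes tested, and higher for none of these. Over all tested genes 10.9% had a different knockdown response. The siRNA targets themselves fell further in C4-2, so a difference in the knockdown response and the depth of the knockdown cannot be told apart.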

How the results depend on the processing

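Counts of the 10 genes called stayed within 1.5 times under DESeq2's size factors in edgeR, a mean of at least 1 CPM and only the groups compared, in all 8 comparisons. No called log2FC changed sign under any alternative, and in 67 fits a log2FC near 0 that passed in neither fit did. Adding a 2-fold limit left 0 calls in each comparison. For dual knockdown in LNCaP the count of 2 became 1 without a filter, 1 with the replicate block and 0 with the GC trend removed. For dual knockdown in C4-2 it became 1 without a filter. For the difference in R1881 response the count of 1 became 2 with the GC trend removed and 2 with the DESeq2 Wald test, which added DNMT3A. Without a filter it stayed at 1, but the DNMT1 call was lost (adjusted p = 0.259) and DNMT3A passed. For the difference in knockdown response 1 became 0 without a filter. Without a filter EZH2 also lost its call for R1881 in LNCaP (adjusted p = 0.132). JARID2 lost its call between the lines with R1881 there (adjusted p = 0.079). With 1 library left out the counts ranged from 4 to 6 and from 2 to 4 for R1881 in LNCaP and C4-2, from 0 to 2 and 1 to 2 for dual knockdown, from 6 to 7 and 5 to 7 between the lines with vehicle and R1881, and from 0 to 2 and 0 to 1 for the R1881 and knockdown responses. The count of 4 for R1881 in C4-2 became 2 without siScr vehicle replicate 1 or siScr R1881 replicate 1. The replicate block ended the SUZ12 call with dual knockdown in LNCaP (adjusted p = 0.051) and changed no other call. Deviations from the group means correlated between same-numbered libraries at -0.10 to 0.10 in LNCaP and -0.05 to 0.09 in C4-2. Their medians were -0.001 in LNCaP and 0.048 in C4-2, beside 0.004 and -0.023 between differently numbered libraries. The numbers were therefore not used as pairs in the main fits, and whether they mark shared batches was not tested. The difference of the log2 EZH2 to EZH1 ratio with 1 library left out ranged from 1.31 to 1.51 between the lines with vehicle and from 1.15 to 1.24 with R1881, and kept its direction in the other comparisons. The cause of these changes was not tested. Over all genes, dual knockdown in LNCaP gave 2431 calls and 1048 with the GC trend removed, 839 and 957 without siScr R1881 replicate 2 or 3, and 918 and 840 without dual knockdown replicate 1 or 2. Among limits, the low counts of PHF19 and DNMT3B and the depth of C4-2 siScr vehicle replicate 3 widen their intervals.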
